A study of Mus musculus with 12 samples.

Results

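The genes described here are 10 genes of protein folding in the endoplasmic reticulum (ER), taken by name from the 20661 genes counted in every library: Hspa5, Hsp90b1, Calr, Canx, Pdia3, Pdia4, Pdia6, P4hb, Serpinh1 and Xbp1. All 10 were found and all 10 passed the filter on low counts in every comparison. Their RNA and their ribosome footprints, the mRNA fragments that ribosomes shield from nuclease, were measured in mouse embryonic fibroblasts (MEFs) in a study of how the tumour suppressor ARF acts on translation. The WT-shSCR group was WT MEFs carrying a lentiviral scrambled hairpin, the WT-shARF group was WT MEFs carrying a lentiviral hairpin against ARF, and the remaining group was Arf-/- MEFs carrying shSCR. All 3 groups were at passage 4, had 2 replicates in each of 2 assays (12 libraries) and carried a hairpin vector. In the Arf-/- mouse, of strain B6.129X1-Cdkn2atm1Cjs/KaiJ, a neo cassette takes the place of exon 1β of Cdkn2a. The sample labels give C57BL/6J for the WT cells while the study's methods give B6129SF2/J. Genotype and mouse strain thus cannot be told apart where Arf-/- MEFs are compared with either WT group. No source used here says whether the replicates were separate cultures or embryos, so the p-values may measure technical spread only.

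Proteins bound for secretion or for membranes enter the ER as unfolded chains and are folded there by chaperones and oxidised by disulfide isomerases. When unfolded chains build up, the unfolded protein response raises the transcription of the folding genes, in part through the transcription factor XBP1 and in part through ATF6, which acts at the ER stress response element of their promoters. Fibroblasts secrete much collagen, and for this they rely on the chaperone encoded by Serpinh1 and on hydroxylases of proline and lysine.

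The ER stress response element reads CCAAT, 9 bases of any kind and CCACG, and the matches among the 10 genes are shown because this element is what the textbook control of the family rests on. RefSeq promoter windows of GRCm38.p6, from 250 bases before to 50 bases after each annotated gene start, were searched on both strands, and each of the 10 genes had 1 window. The element was found in 5 of the 10 genes and in 0.119% of all 32851 windows (39 windows). It was chosen for its textbook part in this family, so these shares are a description and not a test. Capitals mark the CCAAT and CCACG ends, coordinates cover the 19 bases of the element, and 5 flanking bases are printed on each side, 5′ to 3′ on the strand that carries the match.
Hspa5, gene strand, chr2:34772025-34772043: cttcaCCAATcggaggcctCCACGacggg
Hsp90b1, gene strand, chr10:86705638-86705656: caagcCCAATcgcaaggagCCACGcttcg
Hsp90b1, opposite strand, chr10:86705533-86705551: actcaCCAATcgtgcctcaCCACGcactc
Calr, opposite strand, chr8:84847075-84847093: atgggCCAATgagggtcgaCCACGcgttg
Canx, gene strand, chr11:50325800-50325818: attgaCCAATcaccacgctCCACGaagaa
Pdia6, gene strand, chr12:17266491-17266509: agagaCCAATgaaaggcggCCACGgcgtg
Hspa5 and Hsp90b1, the pair of major soluble chaperones, and both lectin chaperones carry the element, while of the disulfide isomerases only Pdia6 does within this window. The related motifs ATTGG with CCACG 1 base after it (in 0.0365% of windows), TGACGTGG (0.676%) and TGACGTCA (1.79%) had 0 matches in the 10 windows. Parts recur among them: ATTGG is the reverse complement of CCAAT, and CCACG or its reverse complement is also in the motif with ATTGG and in TGACGTGG. A match describes letters and does not show that a factor binds there.

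**Figure D1:**
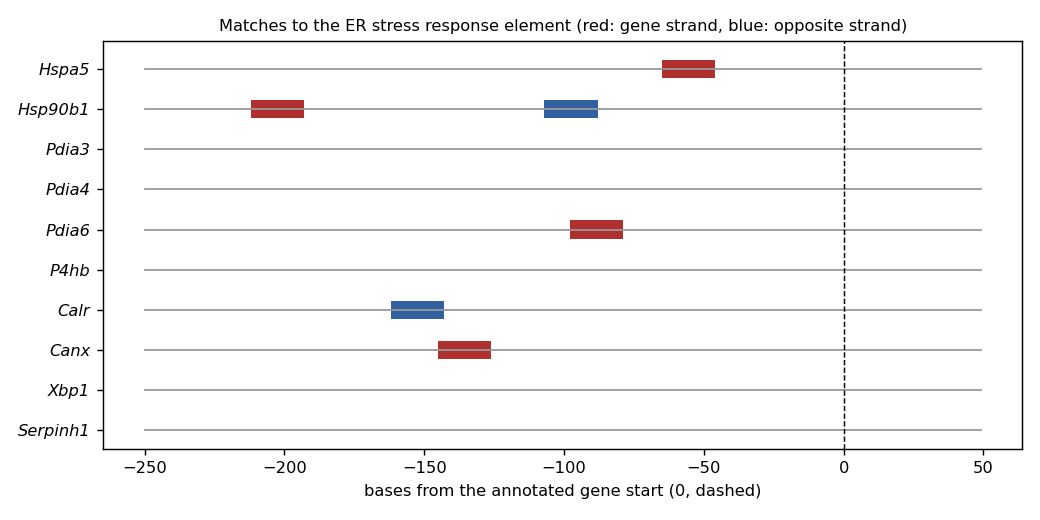
Position of each exact match to the ER stress response element in the promoter windows of the 10 genes, in bases from the annotated gene start (x axis), with red boxes on the gene strand and blue boxes on the opposite strand. All 6 matches lie before the start, and their first bases lie between 65 (Hspa5) and 212 (Hsp90b1) bases before it.

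The libraries held 1578627 to 3989908 RNAseq reads and 2544319 to 5157572 footprint reads on coding sequences, and the 10 genes took 0.797% to 1.00% of the RNAseq reads and 1.59% to 1.81% of the footprint reads. Levels are given in CPM, the reads of a gene relative to all reads on genes in that library, scaled with TMM factors. The study showed knockdown of ARF by immunoblot and described the hairpin as without effect on INK4A. Cdkn2a encodes both ARF and INK4A, and its counts, which do not separate their transcripts, went against one label. Its RNA level was 44.8 and 41.4 CPM in WT-shSCR MEFs, 638 and 678 in the libraries labelled WT-shARF and 27.7 and 32.4 in Arf-/- MEFs, so every direction below that concerns the second of these groups is given for the libraries labelled WT-shARF. All 10 fibroblast markers had reads in each group, as did all 10 macrophage markers. The summed RNA level of the macrophage markers was 454 to 486 CPM in WT-shSCR MEFs, 159 to 231 CPM in libraries labelled WT-shARF and 36.8 to 50.2 CPM in Arf-/- MEFs, and that of their footprints was 588 to 627, 215 to 269 and 44.3 to 63.8 CPM. The summed RNA level of the fibroblast markers, several of them collagen genes, was 21350 to 24467, 22082 to 22449 and 16352 to 17465 CPM in the same order. The 8 epithelial or mesothelial markers summed to 95.6 to 96.8, 57.3 to 69.4 and 158 to 180 CPM of RNA, and Epcam and Upk3b had no footprint read in WT-shSCR MEFs. In bulk samples, fewer cells of a type and less RNA per cell cannot be told apart, and the part of these other cells in the results below was not tested.

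In WT-shSCR MEFs the chaperones and isomerases were among the most abundant genes, and of the 10 genes Serpinh1 stood first and Xbp1 last. Levels of different genes were compared as CPM per kilobase (kb) of median coding length. On this scale the RNA level of Serpinh1, the chaperone of collagen, was 2066 ± 54.6 CPM per kb (SD, n = 2), above 99.3% of 11475 genes. P4hb, a disulfide isomerase that is also a subunit of the collagen prolyl hydroxylase, followed with 1338 ± 31.0 CPM per kb of RNA, and Calr, a soluble lectin chaperone, with 1018 ± 5.19 CPM per kb. Xbp1, the transcription factor, was lowest at 170 ± 11.1 CPM per kb of RNA, which was still above 89.7% of genes.
The others lay between these. Hsp90b1 (GRP94, the ER member of the HSP90 family) had an RNA level of 474 ± 35.1 CPM per kb, Hspa5 (BiP, the ER member of the HSP70 family) 395 ± 10.9 CPM per kb and Pdia3, the isomerase that works with the lectin chaperones, 479 ± 101 CPM per kb. Canx, the membrane-bound lectin chaperone, stood at 355 ± 20.4 CPM per kb of RNA, and the isomerases Pdia6 and Pdia4 at 376 ± 9.73 and 224 ± 5.08 CPM per kb. Neighbours in this order that overlapped in their replicates were Pdia3 with Hsp90b1 and Pdia6 with Canx. The longest coding sequence in place of the median gave lower RNA levels for P4hb (886 CPM per kb, below Calr), Pdia3 (298 CPM per kb), Hsp90b1 (347 CPM per kb) and Xbp1 (136 CPM per kb), genes with short annotated transcripts, and left Serpinh1 first and Xbp1 last.

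In footprints per kb of median coding length the order began with Serpinh1 (3332 ± 253 CPM per kb, SD, n = 2), Pdia3 (2178 ± 31.9), P4hb (1880 ± 103) and Calr (1860.2 ± 31.1). Pdia3 thus stood at place 2 in footprints and at place 4 in RNA. With the longest coding sequence its footprint level was 1356 ± 19.9 CPM per kb, behind that of Calr. P4hb and Calr, and Canx and Pdia6, overlapped in their footprint replicates on the median-length scale. Serpinh1 held the first place and Xbp1 the last in all 3 groups and both assays. In WT-shSCR MEFs the footprint level of Xbp1 was 96.1 ± 11.4 CPM per kb of median coding length, above 81.7% of 11143 genes. The gene models are those of GENCODE M21 on GRCm38: Hspa5 is on chromosome 2 at 34771970-34777547 (plus strand), Pdia3 on chromosome 2 at 121413775-121438687 (plus) and Serpinh1 on chromosome 7 at 99345376-99353239 (minus). The Hspa5 element shown above lies inside that GENCODE gene, although before the RefSeq start. Pdia4 lies on chromosome 6 at 47796141-47813430 (minus), P4hb on chromosome 11 at 120560298-120573253 (minus) and Calr on chromosome 8 at 84841850-84846934 (minus). Reads were counted over coding exons. Calr has a named pseudogene, Calr-ps, the coding exons of Hsp90b1 overlap other annotated genes (1810014B01Rik on the opposite strand, Gm15344 and Gm25745), and the coding exons of Pdia4 overlap Mir704, so the counts of these 3 genes carry that uncertainty.

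**Figure D2:**
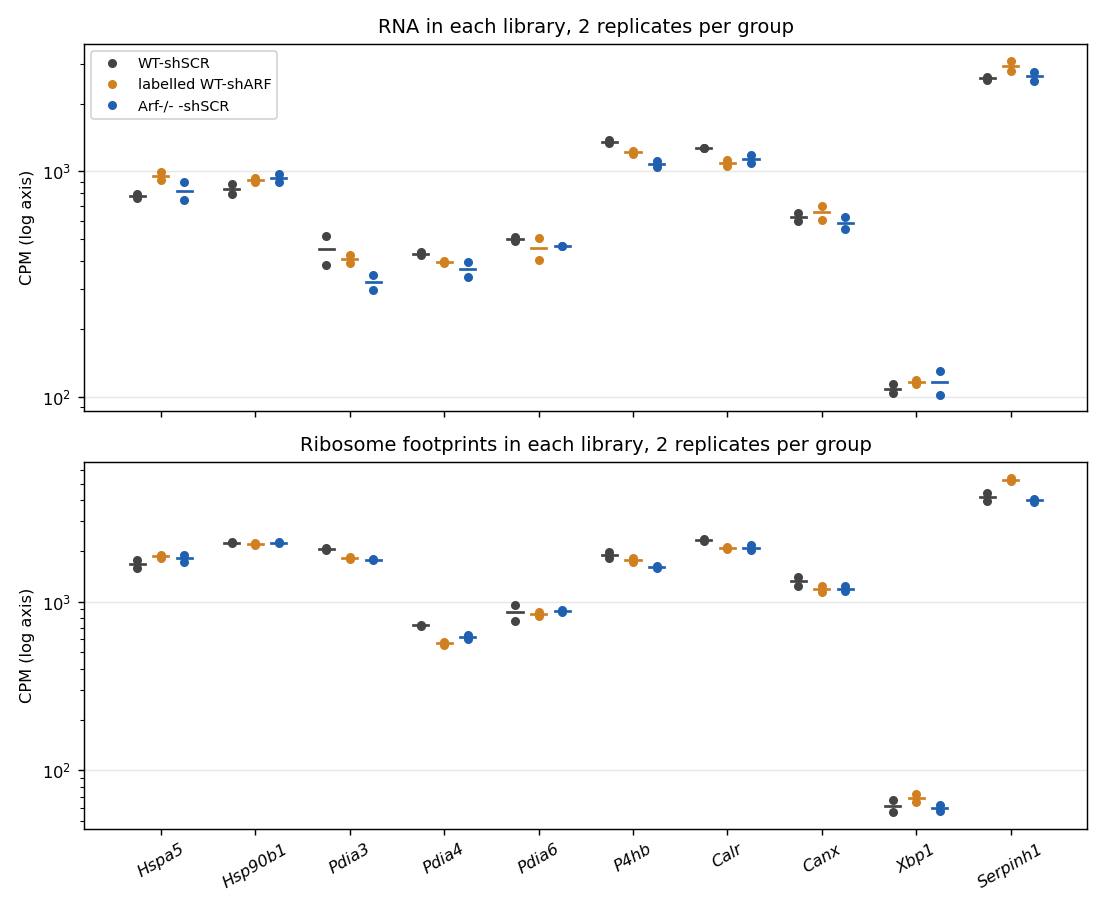
RNA (top) and footprint (bottom) CPM of the 10 genes in each library, on log axes, with WT-shSCR in grey, the libraries labelled WT-shARF in orange and Arf-/- MEFs in blue; points are replicates and short lines are means (n = 2). Serpinh1 is the highest gene in both panels and Xbp1 the lowest, and the orange footprint points of Serpinh1 lie above the grey and blue ones. CPM is not divided by gene length here.

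The chaperones and isomerases carried more footprints per RNA than most genes, and Xbp1 carried fewer. Footprint CPM divided by RNA CPM, which is the translation efficiency (TE) of a gene relative to the other genes, was 5.28 and 4.00 for Pdia3 in the WT-shSCR replicates, and the ratio of its group means, 4.54, was above 99.6% of 8682 genes with at least 10 counts in both assays. Hsp90b1 reached 2.84 and 2.52 (above 96.3% of genes), Hspa5 2.33 and 2.01 (92.7%) and Canx 2.33 and 1.88 (91.9%). These 4 genes belong to 4 different classes of folding protein, an isomerase, an HSP90, an HSP70 and a lectin. Calr had a ratio of group means of 1.83 (above 87.8% of genes), Pdia6 1.72, Pdia4 1.68, Serpinh1 1.61 and P4hb 1.41 (75.1%). The Xbp1 ratio was 0.643 and 0.496, above 16.6% of genes. Xbp1 mRNA is spliced in the cytosol under ER stress, and counts per gene do not separate its spliced and unspliced forms. The position of Pdia3 at the top and Xbp1 at the bottom of the 10 was the same in the other groups: Pdia3 had 4.44 footprint CPM per RNA CPM in libraries labelled WT-shARF and 5.50 in Arf-/- MEFs, and Xbp1 had 0.591 and 0.514.

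**Figure D3:**
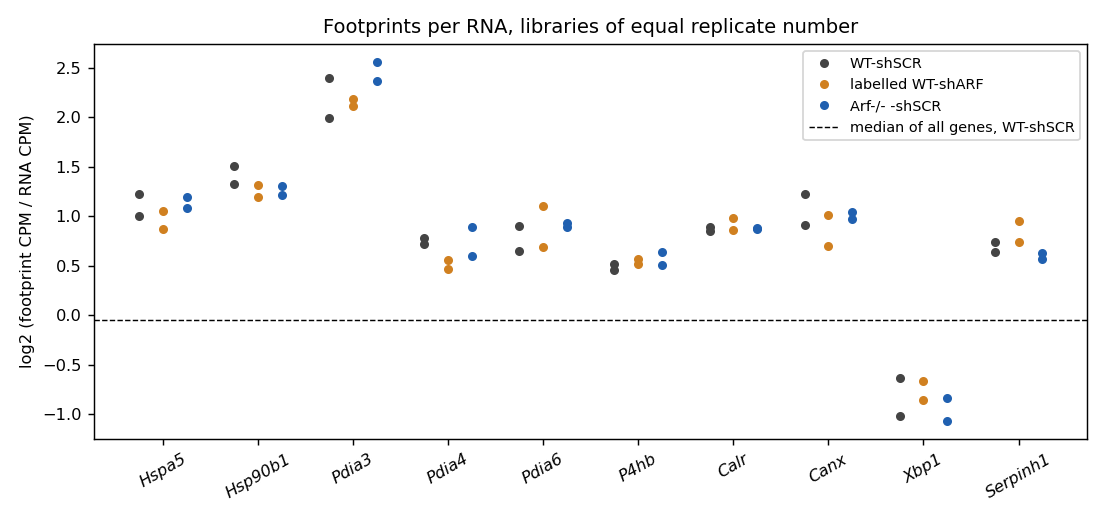
Log2 of footprint CPM over RNA CPM for each gene, for libraries of equal replicate number, with the groups coloured as in the plot of CPM by library; the dashed line is the median over 8682 genes in WT-shSCR MEFs (-0.05). All points of 9 genes lie above the line and all points of Xbp1 lie below it.

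Arf-/- MEFs were first compared with WT-shSCR MEFs, where genotype and mouse strain cannot be told apart. Footprints of 4 of the 10 genes were lower in Arf-/- MEFs, and these were 3 disulfide isomerases (P4hb, Pdia3 and Pdia4) and Calr, each by a modest amount. The other 6, among them Hspa5 and Hsp90b1, did not pass the test in footprints, and none of the 10 passed it in RNA. Over all 10737 genes tested, 8.95% had lower footprints and 18.5% changed in either direction. The median footprint change of the 10 genes was -0.14 on the log2 scale, with 9 of 10 below 0, beside a median of 0.00 over all genes.
P4hb had footprint levels of 1826 and 1974 CPM in WT-shSCR MEFs and 1584 and 1635 in Arf-/- MEFs, and both Arf-/- libraries were below both controls. The log2 fold change of its footprints was -0.27 (SE 0.07, adjusted p = 0.00374, quasi-likelihood test of edgeR, Benjamini-Hochberg adjusted over all genes tested). Pdia3 footprints measured 2033 and 2076 CPM in WT-shSCR MEFs and 1787 and 1755 in Arf-/- MEFs, again without overlap, a log2 change of -0.25 (SE 0.06, adjusted p = 0.00591, edgeR). Both isomerases were thus lower in each Arf-/- library than in either control. For Pdia4, an isomerase with more thioredoxin-like domains than Pdia3 that is found with BiP, footprints were 720.1 and 729 CPM in WT-shSCR MEFs and 599.7 and 631 in Arf-/- MEFs, a change of -0.27 (SE 0.08, adjusted p = 0.0187, edgeR). Calr, the lectin chaperone that hands glycoproteins to Pdia3, had footprints of 2349 and 2294 CPM in WT-shSCR MEFs and 2164 and 2014 in Arf-/- MEFs, a log2 change of -0.19 (SE 0.06, adjusted p = 0.0388, edgeR). Its membrane-bound relative Canx had 1408 and 1232 CPM in WT-shSCR MEFs and 1237 and 1149 in Arf-/- MEFs, which overlap, and a log2 change of -0.18 that did not pass (adjusted p = 0.0984, edgeR).
The major chaperones gave no call in footprints. Hspa5 footprints were 1777 and 1590.0 CPM in WT-shSCR MEFs and 1891 and 1718 in Arf-/- MEFs, a log2 change of 0.07 with a 95% interval from -0.08 to 0.21, and those of Hsp90b1 were 2245 and 2212 CPM in WT-shSCR MEFs and 2256 and 2213 in Arf-/- MEFs, a change of -0.03 (-0.16 to 0.10). Both intervals include 0, and all of these footprint values overlap between the groups. Serpinh1 footprints were 4392 and 3945 CPM in WT-shSCR MEFs and 3911 and 4077 in Arf-/- MEFs, a log2 change of -0.10 (SE 0.06, adjusted p = 0.284, edgeR), with overlap. Pdia6 changed by -0.01 and Xbp1 by -0.08 in log2 footprints, with standard errors of 0.09 and 0.17.
Among the 10 genes in RNA, the largest difference was again in an isomerase, Pdia3, with 385 and 519 CPM in WT-shSCR MEFs and 347 and 298 in Arf-/- MEFs, a log2 change of -0.50 (SE 0.16, adjusted p = 0.0696, edgeR). The controls themselves lie apart there, and both Arf-/- libraries lie below both of them. P4hb RNA was 1330.1 and 1374 CPM in WT-shSCR MEFs and 1115 and 1048 in Arf-/- MEFs, a log2 change of -0.34 (SE 0.14, adjusted p = 0.160, edgeR). Hspa5 RNA was 761 and 791 CPM in WT-shSCR MEFs and 895 and 748 in Arf-/- MEFs, with overlap and a log2 change of 0.07. The replicates of the 2 groups did not overlap for 6 of the 10 genes in RNA, beside 51.6% of all 10659 genes tested, and for 4 of 10 in footprints, beside 57.6%. The count of RNA calls was 0 by edgeR, with 2 of the 10 at an unadjusted p under 0.05, beside 7.93% of genes called; DESeq2 also called 0, and Pdia3 was called without the filter (adjusted p = 0.0371) and with all groups in one fit (adjusted p = 0.0418). Pdia3 RNA was also called without Arf-/- replicate 1 (log2 change -0.62, adjusted p = 0.0353, edgeR).
A fit without 1 control assumes that the lone control varies like the Arf-/- pair, and what a loss of calls there follows from was not tested. Footprint calls of this comparison, of the 10 genes and of all others, did not hold by edgeR without WT-shSCR replicate 1 or without replicate 2. The adjusted p of P4hb was then 0.108 and 0.164 (log2 changes -0.32 and -0.21), of Pdia3 0.128 and 0.143, of Pdia4 0.180 and 0.187, and of Calr 0.273 and 0.219. Without Arf-/- replicate 1, P4hb (0.0503) and Pdia4 (0.220) were not called, and without replicate 2, Pdia3 (0.0715), Pdia4 (0.0712) and Calr (0.407) were not called. Calr was also not called by DESeq2 (adjusted p = 0.0549) or without the filter (0.0949, log2 change -0.15). The sign of all 4 stayed negative under every alternative run.

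The libraries labelled WT-shARF were then compared with the same WT-shSCR libraries, so both comparisons share their controls. Here Serpinh1 footprints were higher, and footprints of the isomerases Pdia4 and Pdia3 were lower. None of the 10 genes passed the test in RNA by edgeR or DESeq2, with 1 at an unadjusted p under 0.05 (7.28% of 10503 genes passed by edgeR), and in footprints 3 of 10 did (11.1% of 10307 genes did, 5.63% higher and 5.5% lower). The median footprint change of the 10 genes was -0.08 beside 0.00 over all genes.
Serpinh1 footprints were 4392 and 3945 CPM in WT-shSCR MEFs and 5388 and 5178 in the libraries labelled WT-shARF, so that both labelled libraries exceeded both controls, and the log2 fold change was 0.33 (SE 0.05, adjusted p = 5.15e-05, edgeR). As group means this was 5283 ± 149 CPM beside 4169 ± 316 CPM (SD, n = 2). Its RNA was 2633 and 2537 CPM in WT-shSCR MEFs and 2789 and 3097 in the libraries labelled WT-shARF, likewise without overlap, but the log2 change of 0.17 (SE 0.13, adjusted p = 0.483, edgeR) did not pass. Serpinh1 footprints were called in all 4 fits that left out a library, with log2 changes from 0.26 to 0.40.
Pdia4 footprints were 720.1 and 729 CPM in WT-shSCR MEFs and 577 and 556 in the libraries labelled WT-shARF, a log2 change of -0.36 (SE 0.08, adjusted p = 0.00185, edgeR), and its RNA was 438 and 424 CPM in WT-shSCR MEFs and 391 and 403 in the libraries labelled WT-shARF, a change of -0.14 (adjusted p = 0.604, edgeR). Neither measure overlapped between the groups. Pdia3 footprints were 2033 and 2076 CPM in WT-shSCR MEFs and 1852 and 1783 in the libraries labelled WT-shARF, a log2 change of -0.19 (SE 0.06, adjusted p = 0.0476, edgeR), while its RNA overlapped. Calr lay just outside the threshold, with footprints of 2349 and 2294 CPM in WT-shSCR MEFs and 2098 and 2044 in the libraries labelled WT-shARF and a log2 change of -0.18 (SE 0.06, adjusted p = 0.0562, edgeR). With the replicate number as a block Calr passed (adjusted p = 0.0102), as it did with DESeq2 (0.0423).
Hspa5 had RNA levels of 761 and 791 CPM in WT-shSCR MEFs and 912 and 994 in the libraries labelled WT-shARF and footprint levels of 1777 and 1590.0 CPM in WT-shSCR MEFs and 1889 and 1819.9 in the libraries labelled WT-shARF. Both labelled libraries were above both controls in each assay, and the log2 changes were 0.28 in RNA (SE 0.12, adjusted p = 0.188, edgeR) and 0.13 in footprints (SE 0.07, adjusted p = 0.234, edgeR). Hsp90b1 RNA was also above both controls, with a log2 change of 0.12 that did not pass, and its footprints changed by -0.03. P4hb footprints had a log2 change of -0.11 (SE 0.06, adjusted p = 0.297, edgeR), Canx -0.16 (SE 0.07, adjusted p = 0.178), Pdia6 -0.04 and Xbp1 0.15. Groups did not overlap for 7 of 10 genes in RNA (49.5% of all genes) and 6 of 10 in footprints (51.5%).
Leaving out WT-shARF replicate 2 ended the call of Pdia4 (adjusted p = 0.0725), and Pdia3 was called only without WT-shSCR replicate 1 (adjusted p = 0.0138), with adjusted p-values of 0.0882 to 0.392 in the other 3 fits and 0.0628 without the filter. Hspa5 footprints passed without WT-shSCR replicate 1 (log2 change 0.20, adjusted p = 0.0280), and Canx (-0.24, adjusted p = 0.0124) and Calr (0.0351) passed without WT-shSCR replicate 2.

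Set directly against each other, Arf-/- MEFs had lower Serpinh1 footprints than the libraries labelled WT-shARF, and no other of the 10 genes passed the test in either assay. The footprint levels were 5388 and 5178 CPM in libraries labelled WT-shARF and 3911 and 4077 in Arf-/- MEFs, a log2 fold change of -0.43 (SE 0.04, adjusted p = 3.33e-06, edgeR). That is 1 of 10 genes called, beside 8.23% of 10941 genes (4.3% lower). In RNA, Serpinh1 was 2789 and 3097 CPM in libraries labelled WT-shARF and 2518 and 2756 in Arf-/- MEFs, a log2 change of -0.17 (SE 0.11, adjusted p = 0.507, edgeR), and 0 of 10 genes were called by edgeR or DESeq2, with 1 at an unadjusted p under 0.05, beside 2.57% of 10632 genes.
P4hb was next in footprints, with 1716 and 1821 CPM in libraries labelled WT-shARF and 1584 and 1635 in Arf-/- MEFs, a log2 change of -0.17 (SE 0.05, adjusted p = 0.0677, edgeR), and it was called without the filter (0.0476). For Pdia4 and Calr, the log2 changes between these groups were 0.09 (95% interval -0.06 to 0.24) and -0.02 (-0.13 to 0.10), and for Pdia3 -0.07 (-0.18 to 0.05). Pdia3 RNA was 426 and 392 CPM in libraries labelled WT-shARF and 347 and 298 in Arf-/- MEFs, a log2 change of -0.35 (SE 0.13, adjusted p = 0.200, edgeR). Groups did not overlap for 4 of 10 genes in each assay, beside 47.1% of all genes in RNA and 50.6% in footprints. Without WT-shARF replicate 1 or replicate 2 the Serpinh1 call ended (adjusted p = 0.199 and 0.142, log2 changes -0.39 and -0.48), and over all genes edgeR then called 0 and 1, with 743 and 849 genes higher and 710 and 794 lower at an unadjusted p under 0.05.

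Changes of TE were not detectable for any of the 10 genes at this depth and number of replicates. The test asked, over 8 libraries per comparison, whether the change between groups differed between the assays. In Arf-/- against WT-shSCR MEFs the log2 TE changes ran from -0.21 (Hsp90b1, 95% interval -0.50 to 0.08) to 0.22 (Pdia3, -0.14 to 0.58), with adjusted p-values of 0.826 and above. Serpinh1, whose footprints rose in the libraries labelled WT-shARF, had a TE change there of 0.17 (-0.08 to 0.42, adjusted p = 0.846, edgeR). Its TE change between Arf-/- MEFs and those libraries was -0.27 (-0.49 to -0.05), with an unadjusted interval that leaves out 0 and an adjusted p of 0.558. For Pdia4 the TE change was -0.06 in the knockout comparison and -0.22 in the libraries labelled WT-shARF, and for P4hb it was 0.03 and 0.07. The share of all genes called in TE was 0.194%, 0.0354% and 0.043% in the 3 comparisons, and at an unadjusted p under 0.05 there were 0, 0 and 2 of the 10 genes. DESeq2 called 0 of the 10 in each. The standard errors of the TE changes of the 10 genes ran from 0.11 to 0.25, larger than those of their footprint changes (0.04 to 0.18), and the intervals above show the sizes that these libraries leave possible.

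**Figure D4:**
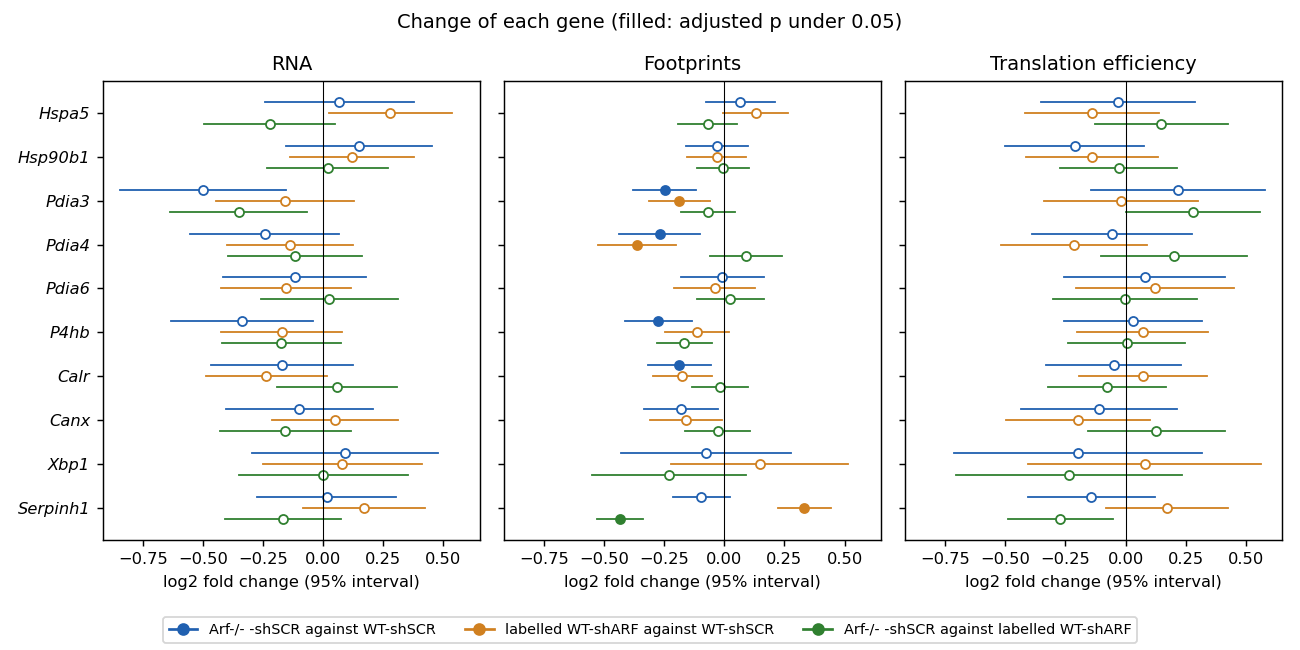
Log2 fold change of RNA, footprints and TE for each gene in the 3 comparisons (colours), with 95% intervals that are not adjusted for the number of genes; filled points have an adjusted p under 0.05. Filled points occur only in the footprint panel: 4 of the knockout comparison (P4hb, Pdia3, Pdia4, Calr), 3 of the libraries labelled WT-shARF (Serpinh1, Pdia4, Pdia3) and Serpinh1 between these groups.

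Around the 10 genes, 160 further genes in 9 lists (ER folding, import and degradation, the unfolded protein response, and as outside references cytosolic and mitochondrial chaperones and fibrillar collagens) were counted in the same fits. In the footprints of Arf-/- against WT-shSCR MEFs, 15 of 155 tested genes were higher and 32 lower. That is 30.3% called, beside 18.5% of all genes, and the median of the lists was -0.12. The total includes the outside references, with 68.4% of 19 cytosolic and mitochondrial chaperones and 100% of 7 fibrillar collagens called. The shares of the single ER lists lay on both sides of the 18.5%, so the pooled share does not describe them. They were 11.1% (unfolded protein response), 15% (degradation), 17.2% (import), 20% (disulfide isomerases and oxidases) and 22.2% (glycoprotein folding). BiP cofactors and other lumenal chaperones had 27.8% called, and collagen hydroxylation and prolyl isomerases 35%. RNA gave 5 higher and 6 lower of 154, or 7.14%, beside 7.93% of all genes. None of 155 passed in TE by edgeR in any comparison (7, 9 and 12 of them had an unadjusted p under 0.05), while DESeq2 called 1 in the knockout comparison.
Of 18 BiP cofactors and other lumenal chaperones, 0 rose and 5 fell in the footprints of Arf-/- MEFs, or 27.8% called. Over all genes 18.5% were called in either direction and 8.95% lower. The list also holds calcium-binding proteins such as Rcn1, which was 1 of the 5 (log2 change -0.40). Hyou1, a nucleotide exchange factor of BiP, had 481 and 413 CPM in WT-shSCR MEFs and 356 and 347 in Arf-/- MEFs, a log2 change of -0.38 (SE 0.10, adjusted p = 0.00432, edgeR). The collagen-modifying list, of proline and lysine hydroxylases and prolyl isomerases, had 0 of 20 higher and 7 lower, or 35% called. P3h1, a prolyl 3-hydroxylase of collagen, had 207 and 177 CPM in WT-shSCR MEFs and 111 and 119 in Arf-/- MEFs and a log2 change of -0.78 (adjusted p = 3.25e-05, edgeR). In the lysyl hydroxylase gene Plod1 the change was -0.72 and in Fkbp14 -1.16.
The disulfide list was split, with 20% of 15 tested genes called in footprints, near the 18.5% of all genes. Qsox1, a sulfhydryl oxidase, had 754 and 678 CPM in WT-shSCR MEFs and 526 and 517 in Arf-/- MEFs (log2 change -0.49, adjusted p = 5.74e-05, edgeR) and Ero1l, which reoxidises disulfide isomerases, fell by 0.54 on the log2 scale, while Prdx4, a peroxiredoxin of the ER, rose by 0.54. In the glycoprotein folding list, Prkcsh, the beta subunit of glucosidase II, fell by 0.52 on the log2 scale and Uggt2 by 0.72. That was 2 of 9 in all, or 22.2%, also near the share of all genes. Of 20 genes of ER-associated degradation, 3 had lower footprints and 0 higher, and these were the lectin gene Os9 (log2 change -0.85), the ubiquitin ligase gene Syvn1 (-0.89) and Edem1 (-0.52). The unfolded protein response list gave 1 higher (Nfyc, 0.65) and 1 lower (Creb3, -0.84) of 18, and its RNA gave 1 higher, Atf4 (0.58), and 1 lower, Creb3 (-0.57). Among 29 genes of ER import, 2 rose, with Srp68 at 0.75, and 3 fell. The shares with footprints called in either direction were 15% for degradation, 11.1% for the unfolded protein response and 17.2% for import. All of these lay below the 18.5% of all genes.
The chaperones of other compartments went mostly the other way, with 10 of 19 higher and 3 lower in footprints. Hspd1, the mitochondrial HSP60, had 1075 and 1084 CPM in WT-shSCR MEFs and 1559 and 1634 in Arf-/- MEFs, a log2 change of 0.53 (SE 0.07, adjusted p = 1.11e-06, edgeR), and its partner Hspe1 rose by 0.69. Those that fell included Hspb1 (-0.48). As with the 10 genes, 0 of the 155 were called without either one of the WT-shSCR libraries.

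The fibrillar collagen chains, the clients of the Serpinh1 product, were read beside it. In the libraries labelled WT-shARF, 4 of 7 chains had higher footprints and 0 lower, beside 5.63% and 5.5% of all genes. Col3a1 had 769 and 654 CPM in WT-shSCR MEFs and 1575 and 1673 in the libraries labelled WT-shARF (log2 change 1.18, SE 0.08, adjusted p = 1.53e-13, edgeR), and Col1a1 had 15528 and 14111 CPM in WT-shSCR MEFs and 20533 and 21133 in the libraries labelled WT-shARF (0.48, SE 0.04, adjusted p = 2.10e-10). Serpinh1 and these chains were thus higher in the same libraries. In RNA 3 of the 7 rose there, beside 7.28% of all genes called, Col3a1 (1.15), Col11a1 (0.65) and Col1a1 (0.45). In Arf-/- MEFs, where the Serpinh1 change did not pass, 6 of 7 chains had lower footprints, beside 8.95% of all genes, with Col5a3 (-0.91), Col5a1 (-0.82) and Col5a2 (-0.51) showing the largest falls, while Col3a1 was higher (0.78, adjusted p = 8.09e-09, edgeR).
Directly compared, all 7 chains had lower footprints in Arf-/- MEFs than in the libraries labelled WT-shARF, with 0 higher, beside 4.3% of all genes with lower footprints. Col11a1 had 682 and 678 CPM in libraries labelled WT-shARF and 384 and 378 in Arf-/- MEFs (log2 change -0.87, SE 0.07, adjusted p = 2.14e-07, edgeR). The summed footprint level of the fibroblast markers, which include Col1a1 and Col3a1, was 46016 to 48973 CPM in WT-shSCR MEFs, 52917 to 53386 CPM in libraries labelled WT-shARF and 37350.1 to 37405 CPM in Arf-/- MEFs, and the part of these markers in the differences was not tested. Over all lists this comparison gave 5 higher and 24 lower of 155, or 18.7%, beside 8.23% of all genes. The outside references in this total had 26.3% (cytosolic and mitochondrial chaperones) and 100% (fibrillar collagens) called. The ER lists had 3.45% (import), 5.56% (unfolded protein response), 6.67% (disulfide isomerases and oxidases) and 15% (degradation) called. Glycoprotein folding had 22.2%, BiP cofactors and other lumenal chaperones 22.2%, and collagen hydroxylation and prolyl isomerases 25%. P3h1 (-0.68), Plod1 (-0.57) and Hyou1 (-0.44) were again lower, and Rcn1, a calcium-binding protein of the ER lumen, was higher (0.53). All of these list counts fell to 0 without either one of the libraries labelled WT-shARF.
In footprints of the libraries labelled WT-shARF against WT-shSCR, 26.3% of the cytosolic and mitochondrial chaperones and 57.1% of the fibrillar collagens were called. The ER lists had 0% (unfolded protein response), 10% (degradation), 10.3% (import), 11.1% (glycoprotein folding) and 13.3% (disulfide isomerases and oxidases) called. BiP cofactors and other lumenal chaperones had 16.7%, and collagen hydroxylation and prolyl isomerases 20%. All lists together, the outside references included, had 13 higher and 11 lower of 155, or 15.5%, beside 11.1% of all genes. The ER lists thus lay on both sides of the share of all genes, and both references lay above it. The lower ones included the calcium-binding Rcn1, with 227 and 222 CPM in WT-shSCR MEFs and 114 and 123 in the libraries labelled WT-shARF (log2 change -0.93, adjusted p = 8.53e-07, edgeR), Calu (-0.44), Qsox1 (-0.68) and Vcp (-0.44), the ATPase that extracts proteins from the ER membrane. The higher ones included Mia3 (0.86), which helps load collagen into transport carriers, Tmx1 (0.68) and Kdelr2 (0.35), a receptor that returns lumenal chaperones to the ER. No gene of the unfolded protein response list was called in footprints or in RNA there (0 of 18 in each by edgeR, with 2 and 1 at an unadjusted p under 0.05).

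**Figure D5:**
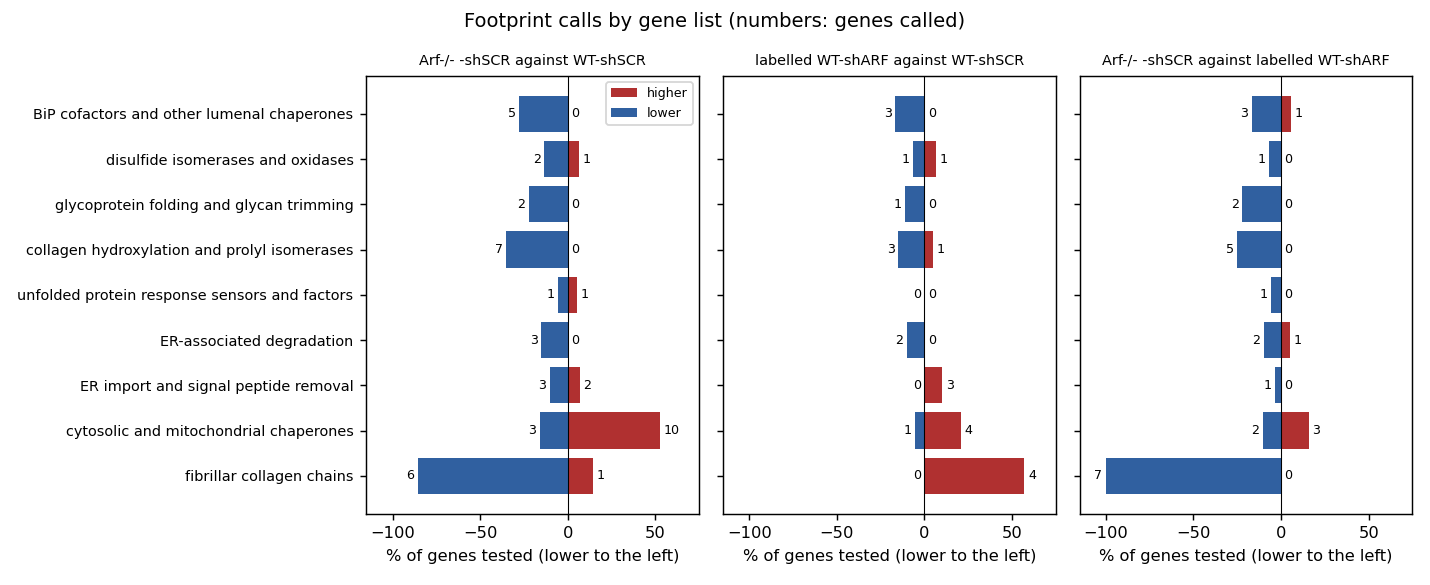
Share of the tested genes of each list with higher (red, right) or lower (blue, left) footprints at an adjusted p under 0.05 in the 3 comparisons, with the number of genes beside each bar. The collagen chains reach 7 of 7 lower in the direct comparison, and the cytosolic and mitochondrial chaperones show 10 higher in Arf-/- against WT-shSCR MEFs.

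The 10 genes did not follow one common pattern over the libraries. As a description, Pearson's r with Hspa5 was computed in log2 CPM over the 6 libraries of an assay, which share 3 groups. Genes with a mean of at least 10 CPM were compared. The same libraries gave the changes above, so r is not separate support for them. In RNA, Acaca, Dock1, Eif1ax, Tmed7 and Pabpc4 were the most like Hspa5 of 8406 genes (r from 0.981 to 0.988). The best of the other 9 genes was Canx (r = 0.72, place 654), followed by Xbp1 (0.66), Hsp90b1 (0.65) and Serpinh1 (0.57), and Calr was lowest (-0.43). In footprints, Rbm15b, Sf3b5, Zfp410, Ppp2r1a and Puf60 came first of 7986 genes (r from 0.975 to 0.988). Xbp1 (r = 0.66, place 873) was the nearest of the 9 there, and Pdia3 (-0.59), P4hb (-0.66) and Pdia4 (-0.74), the 3 isomerases with lower footprints in Arf-/- MEFs, were the farthest. Of the 5 genes with the ER stress response element, 1 (Calr) was called lower in the footprints of the knockout comparison. Of the 5 without a match in the window, 3 were, beside 8.95% of all genes. Any link between the element and these changes was not tested.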

How the data were processed

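RNAseq and ribosome profiling libraries of 3 groups of MEFs with 2 replicates each were used. Per the study's methods and the labels, RNA was fragmented to 17 to 34 nt, footprints were made with RNase T1, and the authors clipped reads, removed barcodes and molecular identifiers with UMI-tools and cutadapt, discarded reads of noncoding RNA with Bowtie2, mapped those left with TopHat (mm10) and used HTSeq to count reads over coding sequences. What they deposited is a whole-number count per gene, not normalized. No removal of duplicates is named in the sources used here. Alignments that were not unique were 79.2% to 81.4% of the RNAseq and 46.3% to 52.9% of the footprint alignments and were not counted. A further 14.9% to 15.5% and 9.41% to 12.0% fell on no coding sequence.

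The 10 genes, the lists and the tests were chosen with earlier results of these data known. Counts were tested with edgeR 4.0.16 in R 4.3.3 (filterByExpr, TMM factors, quasi-likelihood F test, Benjamini-Hochberg adjustment over all genes tested, threshold 0.05), on the 4 libraries of each RNA or footprint comparison and on 8 libraries for the assay by condition term that gives TE. The study used DESeq2 (here 1.42.0), which served as an alternative. CPM used TMM factors over the 6 libraries of an assay. Coding lengths came from GENCODE M21 and promoters from RefSeq. Alternatives were RLE factors, no filter, all groups in one fit, replicate and culture blocks, the longest coding sequence and leaving out each library. For TE, the RNAseq and footprint libraries of a group and replicate number were left out together. An exact permutation test of 2 against 2 libraries cannot give a p below 0.33, so none was used. From each list, up to 3 called genes with the largest rise and 3 with the largest fall per comparison were named, with Cdkn2a as the check of labels. Sequences of proteins were not used here.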

Additional observations from a re-analysis of the deposited data

Results flagged for a closer look

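The direct test of Arf-/- MEFs against the libraries labelled WT-shARF asks whether the 2 groups changed unequally from their shared control. Genotype and mouse strain cannot be told apart in it. Genes whose log2 change passed the test (edgeR, adjusted p under 0.05) are given here. Among the 10 genes this was Serpinh1 in footprints, at -0.43.

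Among the named list genes, footprints of the BiP cofactors and calcium-binding proteins differed by 0.53 for Rcn1, -0.85 for Sdf2l1, -0.52 for Sdf2 and -0.44 for Hyou1. Erp29, a relative of the disulfide isomerases, differed by -0.46, and the glycoprotein folding genes Prkcsh and Uggt1 by -0.40 and -0.30. The collagen hydroxylases P3h2, P3h1 and Plod1 differed by -1.48, -0.68 and -0.57. Creb3 differed by -0.52, and the degradation genes Vcp, Os9 and Syvn1 by 0.30, -0.76 and -0.70. The retrieval receptor Kdelr2 differed by -0.32. The cytosolic chaperones and their cofactors Hsph1, Dnaja2, Hsp90aa1, Bag3 and Hspb1 differed by 0.38, 0.30, 0.26, -0.59 and -0.27, and Hsp90aa1 also by 0.50 in RNA. The collagen chains Col5a3, Col11a1 and Col5a1 differed by -1.40, -0.87 and -0.73 in footprints, and Col11a1, Col5a1 and Col1a1 by -0.98, -0.60 and -0.59 in RNA. The part that other cells had in these differences was not tested: the summed footprint level of the macrophage markers was 215 to 269 CPM in the libraries labelled WT-shARF and 44.3 to 63.8 CPM in Arf-/- MEFs.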

How the results depend on the processing

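DESeq2, RLE factors, no filter on low counts, all groups in one fit and blocks for replicate number or culture were run beside edgeR with TMM factors. Each library was also left out in turn, and in TE fits the RNAseq and footprint libraries of a group and replicate number were left out together. A lone library left in a group was assumed to vary like the other group. The causes of the shifts below were not tested.

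In RNA of Arf-/- against WT-shSCR MEFs DESeq2 called 467 genes in place of 845, with 6 in place of 11 list genes, and 1 of the 10 genes (Pdia3) was called without the filter and with all groups in one fit. In RNA of the libraries labelled WT-shARF against WT-shSCR, DESeq2 called 318 and all groups in one fit 497 in place of 765. In RNA of Arf-/- MEFs against the libraries labelled WT-shARF, 617 genes and 12 list genes were called without the filter in place of 273 and 5. In footprints of Arf-/- against WT-shSCR MEFs DESeq2 called 1305 in place of 1988, and against the libraries labelled WT-shARF 2 of the 10 genes were called without the filter in place of 1. TE calls in the knockout comparison were 75 with DESeq2 (1 list gene), 123 without the filter (2 list genes), 52 with all groups in one fit and 35 with a culture block, in place of 22. In the libraries labelled WT-shARF against WT-shSCR they were 50, 40, 0 and 41 in place of 4, and in the direct comparison 18 with DESeq2, 77 without the filter and 81 with a culture block in place of 5. Leaving out the filter moved the median TE change of all genes in the knockout comparison from -0.04 to 0.07.

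The correlations of replicate differences between groups were -0.14 to 0.06 in RNAseq and 0.02 to 0.04 in footprints over 5507 genes. The main tests therefore did not take equal replicate numbers as pairs. Ratios of footprint to RNA CPM per replicate did match the assays by replicate number, and within a group this correlation was 0.042 to 0.084. With the replicate number as a block, TE calls were 35 in place of 4 for the libraries labelled WT-shARF against WT-shSCR and 14 in place of 5 in the direct comparison, RNA calls among the list genes there were 1 in place of 5, and Xbp1 changed sign in RNA (-0.017). Every other total of calls in both directions stayed within 1.5 times under that block. By direction, 8 list genes in place of 5 had higher footprints in the direct comparison and 81 genes in place of 126 had lower RNA. Crossing the numbers between Arf-/- and each other group in RNA, chosen after seeing the data, gave 1438 calls in place of 845 against WT-shSCR (2 of the 10 genes, Pdia3 and P4hb, and 24 list genes) and 832 in place of 273 against the libraries labelled WT-shARF (1 of the 10 genes and 20 list genes), with Xbp1 at -0.0015.

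Signs turned for log2 changes near 0, none of them called. In footprints of the knockout comparison without the filter Hsp90b1 was 0.0040 and Pdia6 0.025. In TE of that comparison without the filter Calr was 0.080, Canx 0.016, Hspa5 0.096 and Pdia4 0.071, and with all groups in one fit Calr was 0.015, Hspa5 0.031 and Pdia4 0.0061. In TE of the direct comparison Hsp90b1 was 0.013 and Pdia6 0.040 without the filter, Pdia6 was 0.019 with all groups in one fit and P4hb was -0.00017 with DESeq2.

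Leaving out each library in turn, or in TE each RNAseq and footprint pair of equal replicate number, gave these ranges of calls. RNA of Arf-/- against WT-shSCR had 222 to 790 genes, 0 to 1 of the 10 genes and 1 to 9 list genes. RNA of the libraries labelled WT-shARF had 274 to 883 genes and 4 to 13 list genes, and RNA of the direct comparison 6 to 798 and 0 to 14. Footprints of Arf-/- against WT-shSCR had 0 to 1193 genes, 0 to 2 of the 10 and 0 to 33 list genes. Footprints of the libraries labelled WT-shARF had 614 to 1067 genes, 1 to 4 of the 10 and 13 to 28 list genes, and those of the direct comparison 0 to 781, 0 to 1 and 0 to 27. TE had 6 to 51, 7 to 24 and 1 to 125 genes in the 3 comparisons, with 0 to 2 list genes in the last. Among the log2 changes whose sign turned in at least 1 such fit, none was called in the full fit. In RNA of Arf-/- against WT-shSCR the ranges were Hspa5 -0.072 to 0.20, Serpinh1 -0.043 to 0.075 and Xbp1 -0.10 to 0.26. In RNA of the libraries labelled WT-shARF against WT-shSCR the ranges were Canx -0.035 to 0.14 and Pdia3 -0.36 to 0.076. In RNA of Arf-/- against the libraries labelled WT-shARF the ranges were Calr -0.00017 to 0.12, Hsp90b1 -0.038 to 0.082, Pdia6 -0.11 to 0.18 and Xbp1 -0.19 to 0.17. In footprints of Arf-/- against WT-shSCR the ranges were Hspa5 -0.0030 to 0.15, Pdia6 -0.14 to 0.16 and Xbp1 -0.18 to 0.058. In footprints of the libraries labelled WT-shARF against WT-shSCR the ranges were Hsp90b1 -0.064 to 0.0055 and Pdia6 -0.18 to 0.11. In footprints of Arf-/- against the libraries labelled WT-shARF the ranges were Calr -0.073 to 0.029, Canx -0.096 to 0.043, Hsp90b1 -0.046 to 0.036 and Pdia6 -0.034 to 0.087. In TE of Arf-/- against WT-shSCR the ranges were Calr -0.063 to 0.050, Canx -0.26 to 0.12, Hspa5 -0.13 to 0.15, P4hb -0.018 to 0.097, Pdia4 -0.19 to 0.095, Pdia6 -0.031 to 0.29 and Xbp1 -0.37 to 0.075. In TE of the libraries labelled WT-shARF against WT-shSCR the ranges were Pdia3 -0.27 to 0.18, Pdia6 -0.056 to 0.31 and Xbp1 -0.13 to 0.29. In TE of Arf-/- against the libraries labelled WT-shARF the ranges were Canx -0.017 to 0.28, Hsp90b1 -0.071 to 0.031, P4hb -0.018 to 0.079 and Pdia6 -0.20 to 0.20.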
